A study of Zea mays with 18 samples.

Results

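The comparison described here is that of mature kernels with kernels at 35 days after pollination (DAP 35) in the maize inbred line DAN3130, one of a pair of lines that the study grew to follow folate in the kernel. It uses 6 of the 18 RNA-seq libraries of the series, namely the 3 mature libraries (coded 33, 34 and 35) and the 3 DAP 35 libraries (coded 12, 13 and 14) of this line. The other 12 libraries are kernels of DAN3130 at DAP 24 and of the line JI63 at all 3 stages, and only the 6 JI63 libraries of the same stages are used below, for the test of a difference between lines. No treatment or transgene enters the design, and the labelled tissue of both groups is kernel. The study describes 3 biological replicates a stage, with sequencing statistics for each library, but also writes that RNA was pooled. Which RNA was pooled is not stated, so the p-values measure the spread between these libraries, which may be technical. Of 77704 loci in the expression table, leaving out its intron entries, 29633 had a mean above 10 normalized counts over the 6 libraries and were tested.

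A normalized count is the number of reads at a locus divided by a factor for the library's size, as the authors computed it. Values of single libraries are given in the order 33, 34 and 35 for mature kernels and 12, 13 and 14 for DAP 35. A locus is called when its Benjamini-Hochberg adjusted p from limma was under 0.05 and its change at least 2-fold, and changes are differences of log2(normalized count + 1), mature minus DAP 35, given ± SE. Adding 1 before the logarithm shrinks the change of genes whose counts are low throughout a group. A change is also a difference of mean logarithms, so a single library without a read can make it larger than the ratio of the group means. For example, delta zein structural18 had means of 247 in mature kernels and 251 at DAP 35. Its change was -2.78, which was not called, and mature library 35 had no read of it. Levels are not divided by gene length and are compared only within a gene. Positions are those of the B73 version 4 genome used by the authors.

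Between the end of filling and maturity, the maize endosperm stops making starch and zein, its cells die, and the whole kernel loses water. The embryo and the outermost endosperm layer, the aleurone, survive drying. They are known to accumulate late embryogenesis abundant (LEA) proteins such as dehydrins, small heat shock proteins, oil bodies and raffinose sugars, which protect membranes and proteins in the dry state, while abscisic acid keeps the embryo from germinating. A dry kernel also stores messenger RNA that is translated on imbibition.

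The libraries differed before any gene was compared. Reads in loci numbered 11891237, 9428728 and 37739888 in mature kernels, against 17652781, 17989966 and 41144691 at DAP 35. Correlations between replicate libraries, over the tested loci on the log2 scale, ranged between 0.632 and 0.743 in mature kernels, against 0.941 to 0.951 at DAP 35. Across the stages, mature library 35 correlated with the DAP 35 libraries at 0.705 to 0.721, within the range among the mature libraries. For mature libraries 33 and 34 these correlations were 0.537 to 0.576. Mature library 34 stood apart, with 6.0 intron reads per 100 locus reads, against 1.64 and 2.12 in mature libraries 33 and 35 and 0.549 to 0.674 at DAP 35. Loci annotated as ribosomal RNA held 0.339% to 0.584% of the normalized counts in mature kernels, against 0.0269% to 0.0382% at DAP 35. These measures moved with stage, and their part in the results was not tested.

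Of the 29633 loci, 8392 (28.3%) were called. Of these, 3474 were higher (11.7% of the loci tested) and 4918 lower (16.6%) in mature kernels, and the median change was -0.14. The gene lists below hold only loci with a gene identifier. Of the 21414 tested loci with one, 11.3% were higher and 20.6% lower, with a median of -0.60, and counts of the lists are to be read beside these shares. Among the called loci, 1948 fell by at least 5 log2 units and 665 rose by as much. These counts cover only changes that could be called, so they do not show that losses were larger over all loci tested. No read was found in any mature library for 1333 tested loci, of which 1191 were called lower, while 2713 tested loci had no read at DAP 35, of which 239 were called higher. The groups did not overlap at 13766 loci. The loci with most normalized counts took a larger part of the mature libraries, since the leading 100 loci held 33.3% to 44.1% of them in mature kernels, against 24.0% to 26.0% at DAP 35, and 45 loci were among the leading 100 of both stages.

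The share of rises depended on the scaling. Deposited totals were larger in mature kernels, and when every library was scaled to the same total, the median change shifted by -0.45, 2408 loci (8.13%) were higher and 6770 (22.8%) lower. Rises made up 41.4% of the calls with the deposited scaling and 26.2% with equal totals. All 4918 falls and 2408 of the rises were called with both scalings, and no locus was called in opposite directions. Without mature library 34, 3210 loci (10.8%) were higher and 4588 (15.5%) lower. The number of calls was smaller when a DAP 35 library was left out, with 3698 loci called without library 12, 4455 without 13 and 3299 without 14. With edgeR on the recovered reads 6283 loci (21.2%) were called.

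Marker genes of the kernel were read in both groups. The endosperm markers, which are zeins and their regulators, summed to between 1828 and 24601 normalized counts in mature kernels, against 649380 to 759121 at DAP 35. Of their 7 tested members 6 fell and none rose, where 16.6% of all loci tested and 20.6% of those with a gene identifier fell. The other 4, all zeins, were listed at 0 in each of the 6 libraries. The embryo and aleurone markers (globulins, oleosins and viviparous1) summed to between 444290 and 1938180 in mature kernels, against 989693 to 1138460 at DAP 35, and these ranges overlap. Green tissue markers summed to between 934 and 2652 in mature kernels, against 231 to 719 at DAP 35. Of their 9 tested members 2 were called higher, photosystem I reaction center6 and light harvesting complex A1, 3 were called lower and the median change was -2.06, so that the sum and most members went opposite ways. Leaf C4 markers summed to between 1386 and 2636 in mature kernels, against 1198 to 1841 at DAP 35. Of the 5 tested, all carbonic anhydrases, carbonic anhydrase4 was called higher (log2 change 1.69, adjusted p = 0.0134), carbonic anhydrase3 lower (log2 change -5.43, adjusted p = 0.0335) and 3 were not called. The call of light harvesting complex A1 was lost without mature libraries 33 (0.123) or 35 (0.103) or DAP 35 libraries 12 (0.135), 13 (0.052) or 14 (0.142), that of carbonic anhydrase4 without DAP 35 libraries 12 (0.0531) or 14 (0.0595), and that of carbonic anhydrase3 without mature libraries 33 (0.104) or 35 (0.0904) or DAP 35 libraries 12 (0.132), 13 (0.136) or 14 (0.131), with adjusted p-values in parentheses. The remaining C4 marker, phosphoenolpyruvate carboxylase1, had no read in any of the 6 libraries. The part of these tissues in the results was not tested. In bulk kernel RNA, fewer cells of a type and less RNA per cell cannot be told apart.

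The 12 largest rises among named single-gene loci are given first. The rule that chose these rises, and the falls below, required groups that do not overlap, so their separation is no further result. Phosphatidylethanolamine-binding protein13 (Zm00001d016253, chromosome 5, 153523262 to 153524604), of the family of the flowering signal FT and of MOTHER OF FT, which acts in seed dormancy in Arabidopsis, had 782, 1809.8 and 1719 normalized counts in mature kernels and no read at DAP 35. Against a floor of 3 reads over the DAP 35 libraries it was at least 1507-fold higher (adjusted p = 0.000858). The same pattern of no read at DAP 35 was seen in bZIP-transcription factor 55 (Zm00001d013172, chromosome 5, 5811446 to 5811943), a DNA-binding regulator with 200.3, 170.00 and 410.3 counts in mature kernels, which was at least 273-fold higher (adjusted p = 0.0028). LBD-transcription factor 41 (Zm00001d047752, chromosome 9, 140901122 to 140902338), of a family named for its role at lateral organ boundaries, had 62.8, 312 and 228 counts in mature kernels and was at least 211-fold higher (adjusted p = 0.00496).

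Heat shock factors activate the genes of chaperones. HSF-transcription factor 12 (Zm00001d046204, chromosome 9, 71749514 to 71751360) had 1738, 3942 and 231 counts in mature kernels, against 8.52, 0 and 0 at DAP 35, a change of 9.11 ± 1.39 (SE, adjusted p = 0.005). HSF-transcription factor 17 (Zm00001d033987, chromosome 1, 280368696 to 280371148) had 5972, 12577 and 1362 counts in mature kernels, against 62.5, 16.1 and 101 at DAP 35, a change of 6.61 ± 0.95 (SE, adjusted p = 0.00409). Both were lowest in library 35 among the mature libraries.

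AP2-EREBP factors include the regulators of responses to drought and cold. AP2-EREBP-transcription factor 133 (Zm00001d038320, chromosome 6, 154382390 to 154383061) had 10070.3, 23903 and 39901 counts in mature kernels, against 86.6, 535 and 174 at DAP 35, a change of 6.72 ± 0.74 (SE, adjusted p = 0.00187). AP2-EREBP-transcription factor 111 (Zm00001d053195, chromosome 4, 219203452 to 219206150) had 145, 878 and 1269.9 counts in mature kernels, against 0, 13.4 and 25.3 at DAP 35, a change of 6.24 ± 1.44 (SE, adjusted p = 0.0183). The call of AP2-EREBP-transcription factor 111 was lost without mature library 34 (adjusted p = 0.0957), mature library 35 (0.0669) or DAP 35 library 13 (0.0616).

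Galactinol synthase1 (Zm00001d028931, chromosome 1, 51977839 to 51979551), which makes the galactosyl donor for raffinose sugars, was the most even of the large rises, with 3683, 4866 and 4004 counts in mature kernels, against 89.5, 41.7 and 49.5 at DAP 35. Its change was 6.16 ± 0.37 (SE, adjusted p = 0.000618). The gene listed as GRMZM2G073351 (Zm00001d013937, chromosome 5, 25431430 to 25434346) had 3481, 3428 and 7143 counts in mature kernels, against 28.4, 80.6 and 5.89 at DAP 35 (log2 change 7.43, adjusted p = 0.00223). BURP domain-containing protein-RD22-like5 (Zm00001d030997, chromosome 1, 172610221 to 172611639), of a plant family that includes the drought-induced RD22 of Arabidopsis, had 444, 1027 and 721 counts in mature kernels, against 0, 10.8 and 10.6 at DAP 35 (log2 change 7.07, adjusted p = 0.00558). In each of these genes every mature library lay above every DAP 35 library, as the rule of choice required.

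Heme oxygenase2 (Zm00001d036894, chromosome 6, 105839573 to 105842396), of the family that opens the heme ring to make the phytochrome pigment precursor, had 359.7, 425 and 785 counts in mature kernels, against 0, 17.5 and 14.7 at DAP 35 (log2 change 6.22, adjusted p = 0.0112). Photosystem I reaction center6 (Zm00001d018797, chromosome 7, 5387875 to 5388613), a subunit of the light reactions, had 176, 914 and 1247 counts in mature kernels, against 14.2, 55.1 and 0 at DAP 35 (log2 change 5.95, adjusted p = 0.0269). Neither call was stable to leaving out a library. The call of the first was lost without mature libraries 33 (0.0526) or 34 (0.0563), where adjusted p-values are in parentheses, and that of the second without mature libraries 33 (0.0667), 34 (0.127) or 35 (0.0962) or DAP 35 libraries 12 (0.0878) or 14 (0.0596).

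**Figure D1:**
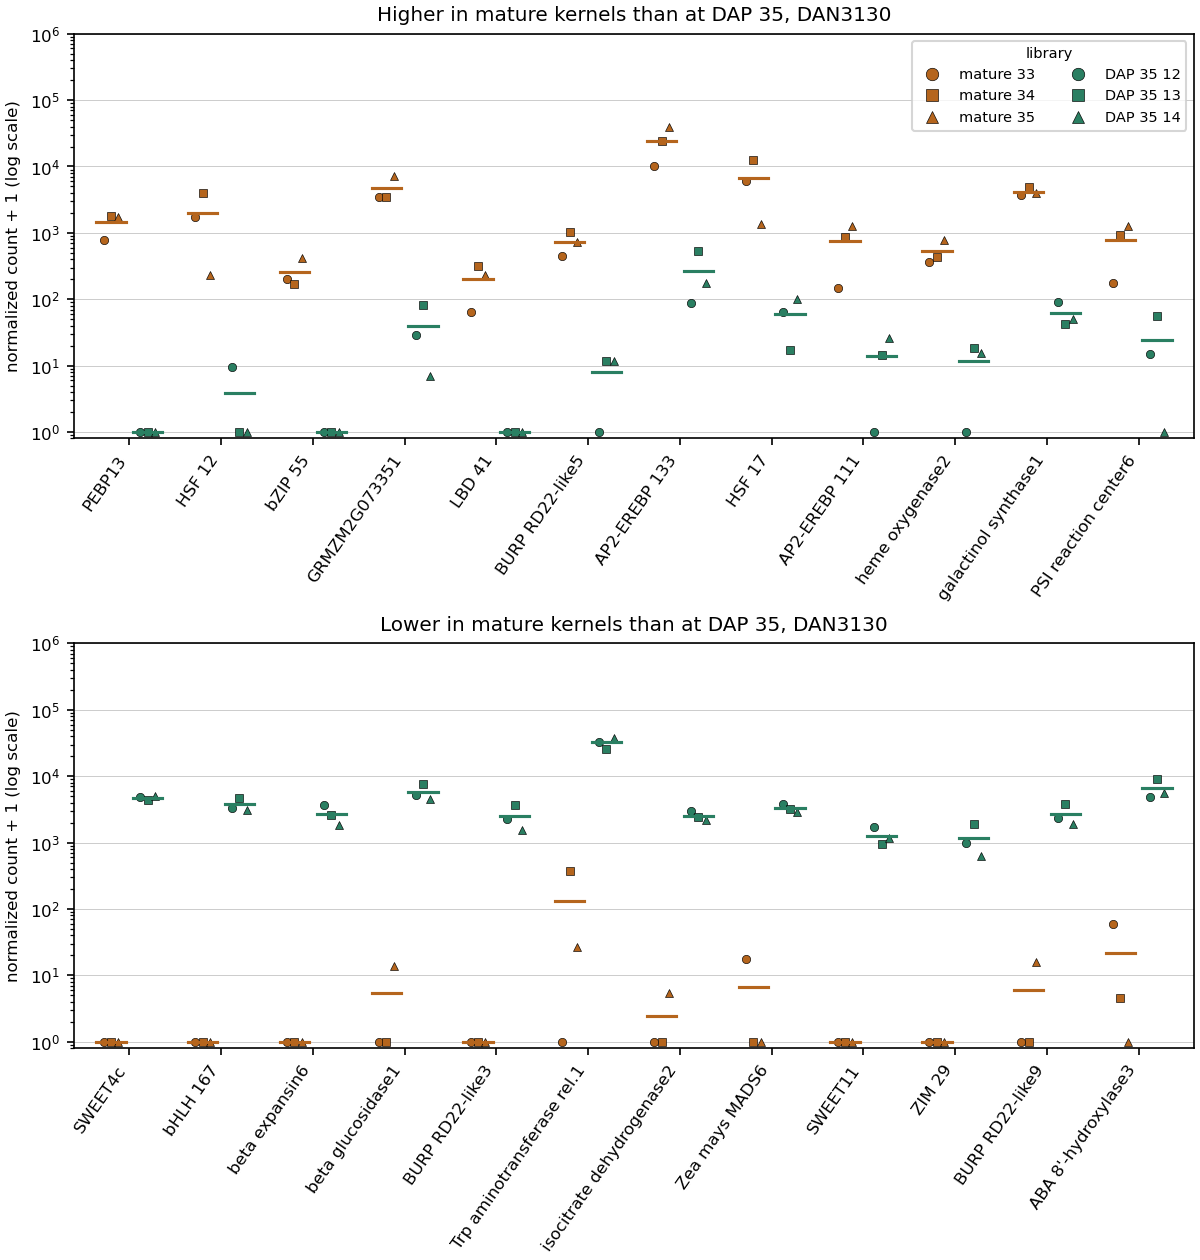
Normalized counts plus 1 (log axis) of the 12 named genes with the largest rise (upper panel) and the 12 with the largest fall (lower panel), in the 3 mature and the 3 DAP 35 libraries of DAN3130, with bars at the group means. The rule that chose these genes required groups that do not overlap, and SWEET4c had no read in any mature library, against 4937, 4323 and 5030.2 counts at DAP 35.

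The 12 largest falls by the same rule follow. SWEET4c (sugars will eventually be exported transporter4c) (Zm00001d015912, chromosome 5, 130787009 to 130789884), the hexose carrier that feeds the endosperm through its transfer cells, had no read in mature kernels, against 4937, 4323 and 5030.2 counts at DAP 35. It was at least 2577-fold lower (adjusted p = 0.000491). SWEET11 (Zm00001d031647, chromosome 1, 197308841 to 197311791), of the sucrose-exporting branch of the same family, had no read in mature kernels, against 1685, 954 and 1178 at DAP 35, and was at least 688-fold lower (adjusted p = 0.000838). No read at maturity was also found for bHLH-transcription factor 167 (Zm00001d003677, chromosome 2, 53849188 to 53854934), a basic helix-loop-helix regulator with 3368, 4751 and 3127 counts at DAP 35 (at least 2027-fold lower, adjusted p = 0.000525).

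Beta expansin6 (Zm00001d029913, chromosome 1, 93847218 to 93848525), one of the proteins that loosen grass cell walls, had no read in mature kernels, against 3717, 2599 and 1809 counts at DAP 35, and was at least 1465-fold lower (adjusted p = 0.000684). BURP domain-containing protein-RD22-like3 (Zm00001d018837, chromosome 7, 6925327 to 6929344) had none, against 2256, 3639 and 1533 at DAP 35, and was at least 1339-fold lower (adjusted p = 0.000684). On the same chromosome, RD22-like9 (Zm00001d018830, chromosome 7, 6726813 to 6733751) had 0, 0 and 15.1 counts in mature kernels, against 2305, 3749 and 1922 at DAP 35, a change of -9.98 ± 1.16 (SE, adjusted p = 0.00218). Thus members of the BURP family were among both the largest rises and the largest falls.

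Tryptophan aminotransferase related1 (Zm00001d037498, chromosome 6, 127318662 to 127321705), of the enzymes that make the auxin precursor indole-3-pyruvate, had 0, 372 and 25.9 counts in mature kernels, against 32978, 25934 and 38114 at DAP 35, a change of -10.53 ± 1.86 (SE, adjusted p = 0.00776). Without DAP 35 library 14 its adjusted p was 0.0503. Beta glucosidase1 (Zm00001d023994, chromosome 10, 35174831 to 35179918), which releases benzoxazinoids and other aglycones from their glucosides, had 0, 0 and 13 counts in mature kernels, against 5179, 7643 and 4469 at DAP 35 (log2 change -11.19, adjusted p = 0.00132). Abscisic acid 8'-hydroxylase3 (Zm00001d050021, chromosome 4, 60281640 to 60287451), of the enzymes that inactivate abscisic acid, had 57.9, 3.54 and 0 in mature kernels, against 4872, 9189.5 and 5530.1 at DAP 35 (log2 change -9.93, adjusted p = 0.00354). Mature library 33 held most of the few remaining reads of this gene.

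The remaining large falls were isocitrate dehydrogenase2, Zea mays MADS6 and ZIM-transcription factor 29. Isocitrate dehydrogenase2 (Zm00001d039079, chromosome 6, 169685197 to 169688921), an enzyme that makes 2-oxoglutarate, had 0, 0 and 4.32 counts in mature kernels, against 2961, 2398 and 2186 at DAP 35 (log2 change -10.48, adjusted p = 0.000937). Zea mays MADS6 (Zm00001d031620, chromosome 1, 196372442 to 196380539), a homeotic-type regulator, had 16.9, 0 and 0 in mature kernels, against 3858, 3248 and 2876 at DAP 35 (log2 change -10.30, adjusted p = 0.00201). ZIM-transcription factor 29 (Zm00001d014249, chromosome 5, 38005178 to 38006513), of the family of jasmonate repressors, had no read in mature kernels, against 983, 1881 and 628 at DAP 35, and was at least 629.7-fold lower (adjusted p = 0.00103).

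The named loci with most counts in mature kernels included dehydrin1, embryo specific protein1, dormancy associated1, metallothionein2 and oleosin1. Dehydrin1 (Zm00001d037894, chromosome 6, 141324495 to 141325633), a LEA protein, had 944961, 1119299 and 1562211 counts, against 128842, 142068 and 84729 at DAP 35, a change of 3.35 ± 0.26 (SE, adjusted p = 0.000838). Embryo specific protein1 (Zm00001d037988, chromosome 6, 144427562 to 144428509) had 903978, 1066046 and 1500563 in mature kernels, against 267556, 268520.2 and 239809 at DAP 35, a change of 2.13 ± 0.20 (SE, adjusted p = 0.00121). Every mature library lay above every DAP 35 library in both genes, but the calls were lost without mature library 33 (adjusted p = 0.0501 and 0.216 in this order of the genes) or 34 (0.136 and 0.442).

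Dormancy associated1, at a locus that joins 2 genes (Zm00001d032422 and Zm00001d032423, chromosome 1, 225974745 to 225976171) so that their reads cannot be told apart, had 435205, 679929 and 612328 counts in mature kernels, against 11377, 25971 and 8980.00 at DAP 35, a change of 5.35 ± 0.39 (SE, adjusted p = 0.000817). Metallothionein2 (Zm00001d029778, chromosome 1, 86529694 to 86530424), a small metal-binding protein, had 211088, 426867 and 1084029 in mature kernels, against 59140.5, 56290.2 and 58892 at DAP 35 (log2 change 2.99, adjusted p = 0.00753, and 0.0928 without mature library 34). Oleosin1 (Zm00001d002768, chromosome 2, 22071286 to 22072967), the coat protein of oil bodies, had 293685, 769251 and 1487406 in mature kernels, against 383262, 302169 and 338365 at DAP 35, a change of 1.03 ± 0.52 (SE, adjusted p = 0.182) that was not called. The oleosin1 values of the stages overlapped, since mature library 33 lay below every DAP 35 library.

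Transcripts of storage proteins, the nitrogen reserve of the kernel, fell. Of 9 tested members 7 were lower, none was higher, and the median change was -6.45, against -0.14 over all loci tested and -0.60 over those with a gene identifier. As a share of all normalized counts the list held 0.496%, 0.436% and 1.05% in mature kernels, against 5.90%, 6.24% and 5.35% at DAP 35. These shares do not cover 4 zeins of the list, which were listed at 0 in each of the 6 libraries. Zeins are the prolamins of the endosperm, and 50kD gamma zein (Zm00001d020591, chromosome 7, 123954068 to 123955705) had 997, 9913 and 444 counts in mature kernels, against 306739, 398555 and 283975 at DAP 35, a change of -7.64 ± 1.01 (SE, adjusted p = 0.00324). The 15 kDa zein had 1456, 11620.3 and 702 in mature kernels, against 255118, 155489.6 and 201125 at DAP 35 (log2 change -6.45, adjusted p = 0.00411). Mature library 34 had the highest count of each of these zeins among the mature libraries. The largest fall of the list was at the locus of 22kD alpha zein4 and AZS22-8, which joins a pair of alpha zein genes, with 203, 1760.2 and 354 in mature kernels, against 146234, 184937 and 136921 at DAP 35 (log2 change -8.26, adjusted p = 0.00107). Alpha zeins have near-identical copies, and reads that fit several of them make the single values uncertain.

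Globulins, the storage proteins of the embryo, behaved unevenly. Globulin2 (Zm00001d034413, chromosome 1, 292247305 to 292249329) had 39275, 44385 and 111159 counts in mature kernels, against 446047, 402764 and 393053 at DAP 35, a change of -2.84 ± 0.37 (SE, adjusted p = 0.00313), and the call was lost without mature library 33 (adjusted p = 0.071) or 34 (0.134). Globulin1 (Zm00001d033447, chromosome 1, 262991884 to 262994316) had 100128, 76309.5 and 313509 in mature kernels, against 295933, 341594 and 246870.2 at DAP 35, a change of -1.13 ± 0.49 (SE, adjusted p = 0.128) that was not called, and library 35 lay within the DAP 35 range. With equal totals globulin1 was called lower (log2 change -1.60, adjusted p = 0.0226). Globulin3, chosen after its values were seen, had 21.7, 538 and 52.9 in mature kernels, against 10472, 8708 and 9095 at DAP 35 (log2 change -6.75, adjusted p = 0.0052).

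Of the storage regulators, 2 of 4 tested were lower. Opaque endosperm2, the bZIP activator of alpha zein genes, had 4.83, 10.6 and 0 counts in mature kernels, against 5187, 2865 and 3413 at DAP 35, a change of -9.83 ± 0.93 (SE, adjusted p = 0.0013). Prolamin-box binding factor1, its partner at zein promoters, at a locus that joins genes, had 451, 326 and 322 in mature kernels, against 1598, 2162 and 1961 at DAP 35 (log2 change -2.38, adjusted p = 0.00208). The second kept a measurable level in every mature library, while the first had no read in library 35.

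Starch synthesis fell nearly as a whole. Of 16 tested loci 13 were lower and none was higher, with a median change of -3.59, and the same count of 13 fell without mature library 34. The list held 0.0656%, 0.0594% and 0.0379% of normalized counts in mature kernels, against 1.53%, 1.13% and 1.74% at DAP 35. The largest fall was brittle endosperm1, the carrier that brings ADP-glucose into the amyloplast, with 140.00, 279.8 and 31.3 counts in mature kernels, against 37698, 19777 and 32149 at DAP 35, a change of -8.05 ± 0.74 (SE, adjusted p = 0.0012). The other members of the starch and following lists that are named in addition to the largest rise and fall were chosen after their values were seen.

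The subunits of the endosperm ADP-glucose pyrophosphorylase, the first committed enzyme, both fell. Shrunken2, the large subunit, had 381, 641 and 177 counts in mature kernels, against 40565, 36292 and 48125 at DAP 35 (log2 change -6.88, adjusted p = 0.000684), and brittle endosperm2, the small subunit, changed by -6.79 (adjusted p = 0.000817). Shrunken1, the sucrose synthase of the endosperm, had 1441, 4594 and 1777 in mature kernels, against 168418, 123018 and 199185 at DAP 35 (log2 change -6.14, adjusted p = 0.000774). Waxy1, which makes amylose, changed by -6.04 (adjusted p = 0.00108), amylose extender1, a branching enzyme, by -6.94 (adjusted p = 0.00469), and sugary1, a debranching enzyme, by -4.07 (adjusted p = 0.00152).

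The exception was the embryo form of the small subunit of ADP-glucose pyrophosphorylase, with 6239.6, 6435 and 5238 counts in mature kernels, against 5707, 5799 and 5869 at DAP 35. Its change was 0.038 ± 0.16 (SE, adjusted p = 0.87), and the stages overlapped. Starch branching enzyme3 (log2 change -0.99, adjusted p = 0.0314) stayed just under the 2-fold limit and was called lower with equal totals (log2 change -1.46), and granule-bound starch synthase1b (log2 change -1.29, adjusted p = 0.172) did not pass the test.

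Genes of starch breakdown divided. Beta amylase2 had 28779.5, 49531 and 168099 counts in mature kernels, against 3301, 3388 and 3732 at DAP 35, a change of 4.16 ± 0.58 (SE, adjusted p = 0.00374). Pullulanase-type starch debranching enzyme1, at a locus that joins genes, had 84.5, 95.6 and 42.1 in mature kernels, against 1777, 2899 and 2179.8 at DAP 35 (log2 change -4.98, adjusted p = 0.00102), and starch phosphorylase1, which also acts in filling endosperm, changed by -4.62 (adjusted p = 0.000949). Thus 1 of 4 tested members rose and 2 fell.

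**Figure D2:**
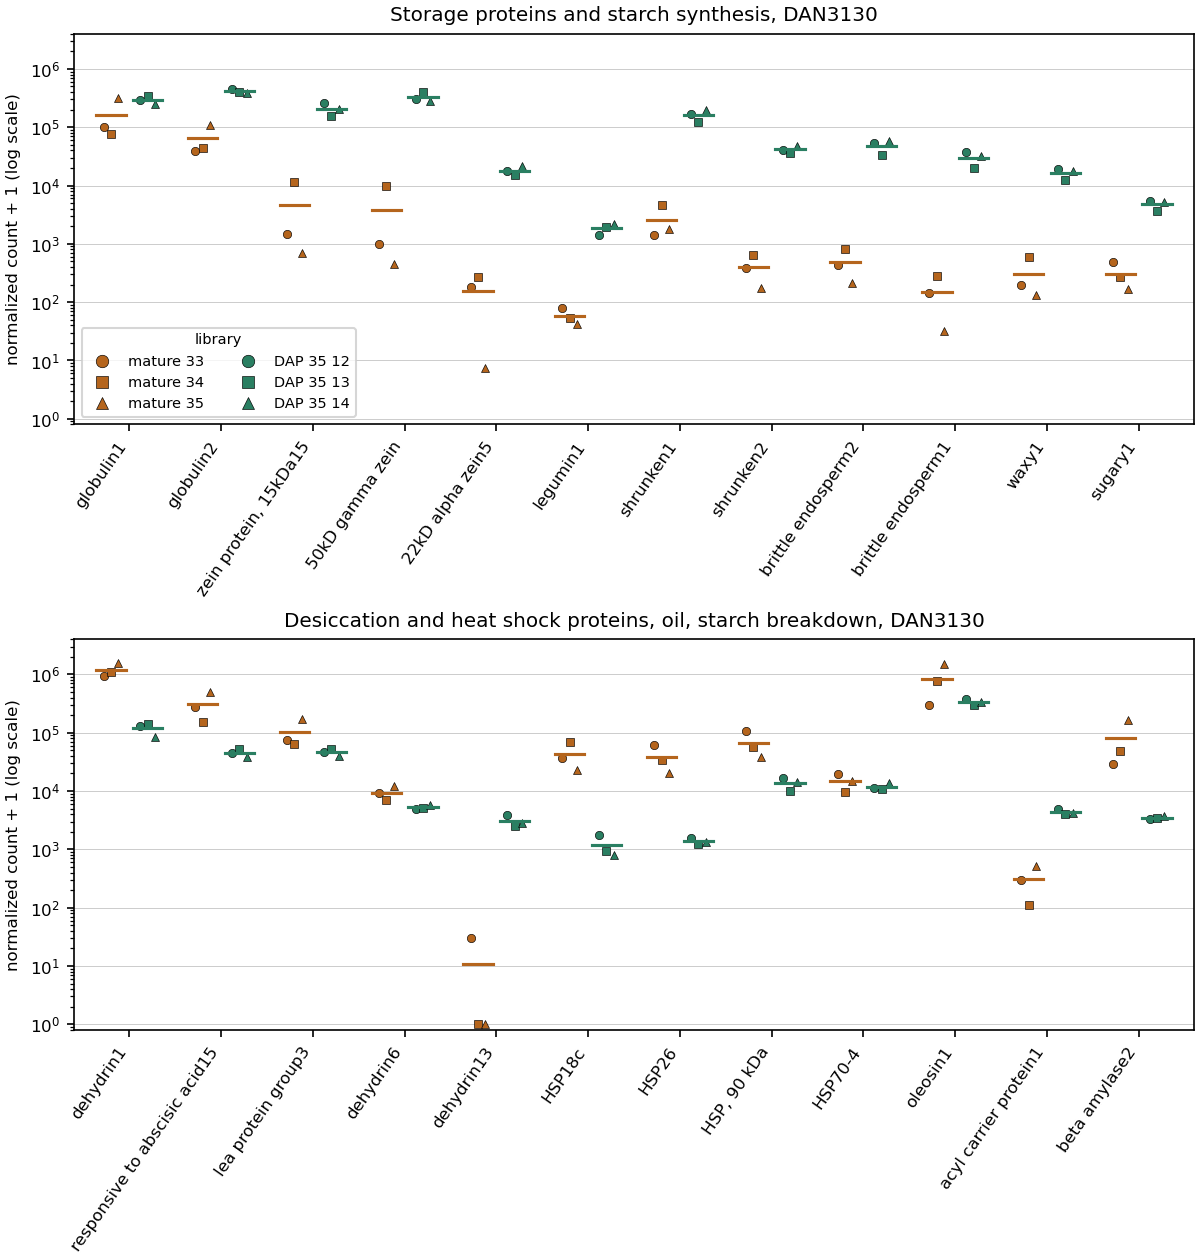
Normalized counts plus 1 (log axis) of 12 storage protein and starch synthesis genes (upper panel) and 12 genes of desiccation, heat shock, oil and starch breakdown (lower panel), in the 3 mature and the 3 DAP 35 libraries of DAN3130, with bars at the group means. The starch genes of the upper panel lie lower in every mature library than in any DAP 35 library, while oleosin1, globulin1 and heat shock protein70-4 overlap between the stages.

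Delivery of sugar to the kernel runs through the basal endosperm transfer layer, whose genes had few reads at maturity. Of 8 tested transfer layer genes 6 fell and none rose, with a median of -5.59, or -5.20 with genes lacking reads in a group set at their bound. Basal endosperm transfer layer9, a small secreted protein, had 2.41, 0 and 28.1 counts in mature kernels, against 1464, 2409.6 and 1934 at DAP 35, a change of -8.68 ± 1.19 (SE, adjusted p = 0.00365). Miniature seed1, the cell wall invertase that splits incoming sucrose, had 1 read in all mature libraries together, against 1133, 808 and 833 counts at DAP 35 (log2 change -9.25, adjusted p = 0.00132). The ratio of the DAP 35 to the mature level, with its 95% counting interval, was 1451 (260.2 to 57321). Maternally expressed gene14 was the only member listed higher in the mature group, from reads in library 33 alone (log2 change 2.27, adjusted p = 0.424).

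Over all 43 tested loci of sugar cleavage and transport, 3 rose and 15 fell (median -2.05), and without mature library 34, 2 rose and 12 fell. The largest rise was SWEET12a, a sugar exporter, with 2851, 3375 and 3904 counts in mature kernels, against 131, 121 and 129.5 at DAP 35, a change of 4.71 ± 0.26 (SE, adjusted p = 0.000525). Its values varied little within each stage, and of 11 tested SWEET loci it was the only rise, beside 4 falls. Sucrose synthase1 had 639.7, 988 and 1127 in mature kernels, against 8393, 8343 and 8447 at DAP 35 (log2 change -3.23, adjusted p = 0.000839). Trehalose-6-phosphate synthase5, of the sugar signalling branch, had 3954, 3404 and 3704 in mature kernels, against 1095, 1805 and 687 at DAP 35 (log2 change 1.73, adjusted p = 0.0122). This call was lost, with the adjusted p in parentheses, without mature libraries 33 (0.0582) or 34 (0.0514) or DAP 35 library 12 (0.0599).

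The desiccation proteins named as such in the table were split rather than uniformly high. Of 7 tested, 2 rose, 2 fell and 3 were not called (median 0.78). The rises were dehydrin1 and responsive to abscisic acid15, a LEA protein with 273595, 154046 and 502999 counts in mature kernels, against 44310.3, 52079.8 and 38789.9 at DAP 35, a change of 2.63 ± 0.40 (SE, adjusted p = 0.00474). The call of the second was lost without mature library 33 (0.0507) and that of dehydrin1 as given above. Dehydrin13 had 29, 0 and 0 in mature kernels, against 3824, 2484 and 2779 at DAP 35, a change of -9.91 ± 1.33 (SE, adjusted p = 0.00339), so that members of the dehydrin family moved in opposite directions. LEA protein group3 had 73859, 64537 and 172154 in mature kernels, against 46478, 52396 and 39394 at DAP 35 (log2 change 1.03, adjusted p = 0.0702), which was not called. Without mature library 34, 1 desiccation gene rose. The list as a whole held 4.54%, 4.03% and 5.52% of normalized counts in mature kernels, against 0.916%, 1.06% and 0.712% at DAP 35.

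Among the lists chosen by gene name, heat shock proteins had the largest share of rises. Of 11 tested, 7 rose and 1 fell (median 2.21), with equal totals 5 rose, and without mature library 34 also 5. The small heat shock protein18c, which keeps unfolded proteins from clumping, had 37167, 70551 and 22922 counts in mature kernels, against 1791, 946 and 799.6 at DAP 35, a change of 5.14 ± 0.46 (SE, adjusted p = 0.00113). Heat shock protein26, a small chloroplast form, had 62061, 34709 and 20497 in mature kernels, against 1547, 1244 and 1351 at DAP 35 (log2 change 4.68, adjusted p = 0.000904), and the 90 kDa heat shock protein had 105171, 56405 and 38487 in mature kernels, against 16559, 9869.5 and 14145 at DAP 35 (log2 change 2.21, adjusted p = 0.00696). In these 3 genes library 35 was the lowest of the mature libraries.

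Heat shock protein70-4 (log2 change 0.27, adjusted p = 0.459) and the organelle chaperonin10 (log2 change 0.32, adjusted p = 0.584) did not pass the test. Chaperonin2, a protein-folding cage subunit, had 1743, 1233 and 868 in mature kernels, against 3048, 2350.5 and 2535 at DAP 35 (log2 change -1.09, adjusted p = 0.0308), a call that was lost without mature libraries 34 (0.0868) or 35 (0.0478, under 2-fold) or DAP 35 libraries 12 (0.127), 13 (0.0885) or 14 (0.105). Of 24 tested heat shock factors 10 rose and 2 fell (median 1.24). With equal totals 8 rose and 3 fell, and with edgeR 10 rose and 0 fell. Over the fits that left out 1 library the rises numbered 8 to 11 and the falls 0 to 3. Besides factors 12 and 17, HSF-transcription factor 7 had 5248, 7615 and 6694 in mature kernels, against 1072, 883 and 836 at DAP 35 (log2 change 2.80, adjusted p = 0.000901), and the changes of the other 7 that rose lay between 1.26 and 4.90.

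Lipid genes fell in part. Beside oleosin1, which overlapped, 8 of 21 tested loci fell and 1 rose (median -1.42). Fatty acid elongase2, which lengthens fatty acids, had 67.6, 0 and 49.7 counts in mature kernels, against 906, 855 and 1021 at DAP 35, a change of -5.93 ± 1.54 (SE, adjusted p = 0.027) that was not called without mature library 33 (0.0537) or DAP 35 libraries 12 (0.111), 13 (0.111) or 14 (0.115). Acyl carrier protein1, the carrier of growing fatty acids in plastids, had 292, 109.8 and 509.7 in mature kernels, against 4886, 4018 and 4214 at DAP 35 (log2 change -4.10, adjusted p = 0.00295). Diacylglycerol kinase4, which makes phosphatidic acid and lies in a locus that joins genes, had 1033, 559.6 and 1079.8 in mature kernels, against 332, 411 and 291 at DAP 35 (log2 change 1.32, adjusted p = 0.0321), and this only rise was not called with equal totals (adjusted p = 0.137) nor without mature libraries 33 (0.0778) or 35 (0.0713) or DAP 35 libraries 12 (0.108), 13 (0.0746) or 14 (0.12).

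Central carbon metabolism fell in part. Of 49 tested loci of glycolysis and the tricarboxylic acid cycle 21 fell and 1 rose (median -1.30). Enolase1, a glycolytic enzyme, had 391, 531 and 341 counts in mature kernels, against 21442, 11707 and 18813 at DAP 35, a change of -5.34 ± 0.30 (SE, adjusted p = 0.000525). Succinate dehydrogenase5, a subunit of the respiratory complex II, was the rise, with 1499, 1116 and 1161 in mature kernels, against 409, 431 and 414 at DAP 35 (log2 change 1.58, adjusted p = 0.00613). With equal totals 31 of the 49 fell.

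Fermentation enzymes, which serve the oxygen-poor interior of filling kernels, fell in 5 of 6 tested genes. Alcohol dehydrogenase2 had 57.9, 67.3 and 8.64 counts in mature kernels, against 7646, 4053 and 3639 at DAP 35, a change of -7.16 ± 0.78 (SE, adjusted p = 0.00185). Alcohol dehydrogenase1, the major form, had 13298, 9439 and 7173 in mature kernels, against 48138, 27105 and 43310.2 at DAP 35 (log2 change -1.99, adjusted p = 0.00467), and pyruvate decarboxylase1 changed by -3.93 (adjusted p = 0.00474). Pyruvate decarboxylase3 (log2 change -0.61, adjusted p = 0.0438) passed the p limit but not the 2-fold limit, and was called lower with equal totals (log2 change -1.08).

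Cell wall genes and tubulins fell. Of 24 tested cell wall genes 17 were lower and none higher (median -4.33), the same count as without mature library 34. Of the cellulose synthases, which spin the wall's glucan chains, 9 of 12 tested fell, and cellulose synthase6 had 1045, 563 and 732 counts in mature kernels, against 13901, 10468 and 18085 at DAP 35, a change of -4.19 ± 0.30 (SE, adjusted p = 0.000817). Of 54 tested loci of histones, tubulins and the cell cycle 26 fell and 4 rose (median -2.43). Beta tubulin4, a microtubule subunit, had 1 read in all mature libraries together, against 1145, 766 and 769.6 counts at DAP 35 (log2 change -9.43, adjusted p = 0.00111), a DAP 35 to mature ratio of 1384 with a 95% counting interval of 248 to 54673. Histone1a, a linker histone, had 934, 1247 and 1056 in mature kernels, against 14136, 12662 and 9503 at DAP 35 (log2 change -3.48, adjusted p = 0.000684). The 4 rises included 2 of 6 tested cyclin-dependent kinase inhibitors, brakes of the cell cycle, and inhibitor1 had 654, 599 and 687 in mature kernels, against 155, 219 and 216 at DAP 35 (log2 change 1.73, adjusted p = 0.00971). Inhibitor2 changed by 1.09 (adjusted p = 0.0423), and was not called at equal totals (log2 change 0.62), with edgeR (adjusted p = 0.109) nor without mature libraries 34 (0.0515) or 35 (0.0528) or DAP 35 libraries 12 (0.0961), 13 (0.0783) or 14 (0.131).

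Among 46 tested loci of abscisic acid and dormancy 6 (13.0%) rose and 5 (10.9%) fell (median -0.71), shares near or below the 11.7% and 16.6% over all loci tested, and with equal totals 6 rose and 8 fell. Viviparous1, the regulator that represses germination, had 11181, 9658 and 26053 counts in mature kernels, against 2746, 2391 and 2309.9 at DAP 35, a change of 2.51 ± 0.37 (SE, adjusted p = 0.00433). The inactivating enzymes moved in opposite directions, since abscisic acid 8'-hydroxylase2 had 2967, 5752 and 10195 in mature kernels, against 257, 531 and 375 at DAP 35 (log2 change 3.91, adjusted p = 0.00268), while hydroxylase3 fell as given above. Among auxin genes 27 of 67 fell and 3 rose (median -1.79), and Aux/IAA-transcription factor 11, a repressor of auxin response, had 917, 1941 and 1761 in mature kernels, against 243, 187 and 317 at DAP 35 (log2 change 2.58, adjusted p = 0.00491). The largest auxin fall by the same rule was ARF-transcription factor 35, an auxin response factor (log2 change -6.77, adjusted p = 0.0152), which was not called without mature libraries 33 (0.0778) or 34 (0.0522) or DAP 35 libraries 12 (0.0822), 13 (0.0791) or 14 (0.0751).

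Cytokinin, ethylene and gibberellin genes fell in 15 of 40 and rose in 2 (median -1.53). The cytokinin-degrading cytokinin oxidase 4 changed by 2.19 (adjusted p = 0.00365). Cytokinin oxidase1 had 1 read in all mature libraries together, a DAP 35 to mature ratio of 462 with a 95% counting interval of 82.6 to 18251 (adjusted p = 0.00254). Jasmonate genes rose in 6 of 39 (15.4%) and fell in 9 (23.1%), against 11.3% and 20.6% of loci with a gene identifier. Without mature library 34, 3 rose and 8 fell. The largest rise, lipoxygenase6, changed by 2.71 (adjusted p = 0.0322), a call that was lost without mature libraries 33 (0.115), 34 (0.0588) or 35 (0.102) or DAP 35 libraries 12 (0.0513), 13 (0.107) or 14 (0.104).

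Transcription factor families are given beside the loci with a gene identifier, of which 11.3% rose and 20.6% fell. NAC factors, which include regulators of senescence and of wall thickening, fell in 30 of 75 (40%) and rose in 6 (median -2.05). Homeobox factors fell in 17 of 64 (26.6%) and rose in 5 (-0.92), and MYB factors fell in 15 of 63 (23.8%) and rose in 3 (-1.44). MADS factors fell in 7 of 20 (35%) and rose in 1 (-1.47). Falls of Homeobox factors numbered 10 with edgeR, and 3 to 23 over the fits that left out 1 library. Those of bHLH factors, given below, numbered 9 and 3 to 25. AP2-EREBP factors rose in 22 of 98 and fell in 13 (median 0.57), and bZIP factors rose in 19 of 82 and fell in 13 (-0.014). With equal totals these became 18 rises and 18 falls among AP2-EREBP factors and 11 rises and 17 falls among bZIP factors, so that the balance of both depended on the scaling. Without mature library 34 AP2-EREBP factors rose in 15 and fell in 8. The remaining families were bHLH (10 up, 17 down of 80), WRKY (10 up, 9 down of 72, and 4 up, 7 down without that library), MYB-related (6 up, 12 down of 55), GRAS (4 up, 2 down of 31, with a median of -1.02) and C2H2 (2 up, 0 down of 6). With equal totals the balance of WRKY factors (6 up, 13 down) and GRAS factors (3 up, 8 down) turned as well, and C2H2 factors had 1 up and 1 down.

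Single members of these families are given next. NAC-transcription factor 49 had 15938, 44781 and 37674 counts in mature kernels, against 1146, 1296 and 874 at DAP 35, a change of 4.78 ± 0.39 (SE, adjusted p = 0.000946). MYB-transcription factor 133 had 6643, 5840.3 and 7504 in mature kernels, against 783, 927 and 773 at DAP 35 (log2 change 3.0, adjusted p = 0.000702), and MADS-transcription factor 62 changed by 4.33 (adjusted p = 0.0027). The largest falls of their families were NAC-transcription factor 130 (log2 change -8.85, adjusted p = 0.011) and a set of loci with 1 read or none in mature kernels. Those without a read were MYB-transcription factor 155 (at least 134-fold lower, adjusted p = 0.00248), MADS-transcription factor 41 (at least 360.5-fold, 0.00123) and bZIP-transcription factor 45 (at least 183-fold, 0.00234). AP2-EREBP-transcription factor 167 had 1 read in all mature libraries together, a DAP 35 to mature ratio of 2207 with a 95% counting interval of 396 to 87204 (adjusted p = 0.00109). The call of NAC-transcription factor 130 was lost without mature library 33 (0.0515) or DAP 35 libraries 12 (0.0596), 13 (0.0567) or 14 (0.0608).

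**Figure D3:**
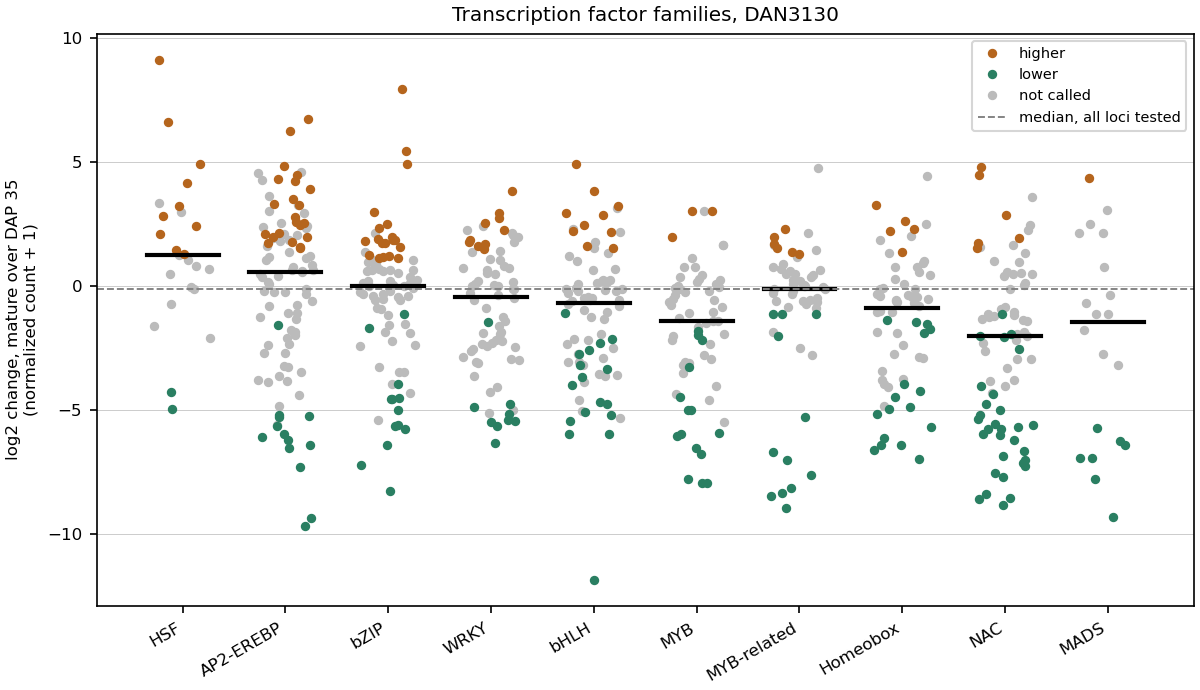
Log2 change of normalized count plus 1, mature over DAP 35, of each tested member of 10 transcription factor families in DAN3130 (points, coloured by call), with black bars at the family medians and a dashed line at the median of all loci tested (-0.14). The median of loci with a gene identifier, which all these members have, was -0.60. The heat shock factor median lies at 1.24 and the NAC median at -2.05, and every family holds members on both sides of 0.

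Transport and protection lists were mixed. Aquaporins rose in 5 of 20 and fell in 6. Both tested loci named tonoplast intrinsic protein3, the water channel of seed storage vacuoles, rose, and the one with more counts (Zm00001d013956) had 52311, 77797 and 331525 counts in mature kernels, against 20561, 35237 and 19403 at DAP 35 (log2 change 2.19, adjusted p = 0.0411), a call that was lost without mature libraries 33 (0.0645) or 34 (0.129) or DAP 35 libraries 12 (0.158), 13 (0.104) or 14 (0.162). The other (Zm00001d032610) changed by 3.51 (adjusted p = 0.00658). Antioxidant enzymes rose in 4 of 13 and fell in none, led by catalase2, which breaks down hydrogen peroxide, with 9182, 9169 and 16891 in mature kernels, against 1146, 1097 and 688 at DAP 35 (log2 change 3.56, adjusted p = 0.00119). Glutathione transferases rose in 6 of 26 and fell in 2 (2 and 4 without mature library 34), photosynthesis genes rose in 6 of 18 and fell in 3 (3 and 3 without it), and defence proteins rose in 1 of 12 and fell in 2. With equal totals these counts were 3 and 4, 3 and 3, and 0 and 4 in the same order of the lists, and antioxidant enzymes rose in 3 and fell in 1.

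The median change of ribosomal and translation genes was 0.035, against -0.14 over all loci tested and -0.60 over those with a gene identifier. Of the 49 ribosomal and translation genes 8 (16.3%) rose and 5 (10.2%) fell, and 4 rose and 11 fell at equal totals. Translation initiation factor1 had the most counts of them in mature kernels and rose, with 344782, 407742 and 468390.3 counts in mature kernels, against 87150.5, 77237 and 73035 at DAP 35, a change of 2.36 ± 0.16 (SE, adjusted p = 0.000702), a call that was lost without mature library 34 only (0.0873). Proteolysis genes rose in 3 of 55 (5.45%) and fell in 10 (18.2%), but in 0 and 20 with equal totals. Their share of falls was near the 20.6% of loci with a gene identifier. Amino acid enzymes rose in 3 of 17 and fell in 4 (2 and 6 with equal totals, 1 and 4 without mature library 34), and cuticular wax genes fell in 1 of 3.

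In the other families, these members had the largest called rise or fall among those with a mean of 100 or more, given on the log2 scale. C2H2-transcription factor 23 rose to 2776, 2837 and 3371 counts in mature kernels, against 993, 1129 and 1049 at DAP 35 (adjusted p = 0.0033). GRAS-transcription factor 37 changed by 3.32 (adjusted p = 0.00188) and GRAS-transcription factor 69 by -2.40 (0.00284). Of the MYB-related family, MYB-related-transcription factor 86 changed by 2.29 (adjusted p = 0.00419) and MYB-related-transcription factor 9, without a read in mature kernels, was at least 266-fold lower there (0.00143). The bHLH-transcription factor 6 had 1328, 4463 and 12293 counts in mature kernels, against 71, 293 and 122 at DAP 35 (log2 change 4.92, adjusted p = 0.00733, lost without mature library 34 (0.0502)). Homeobox-transcription factor 78 rose by 3.24 (adjusted p = 0.0167), a call lost without mature libraries 34 (0.0744) or 35 (0.0574) or DAP 35 libraries 12 (0.0508), 13 (0.0761) or 14 (0.0774), and Homeobox-transcription factor 6 changed by -6.98 (0.00702) in a locus that it shares with another gene, lost without DAP 35 library 14 (0.0505). WRKY-transcription factor 106 rose by 3.80 (adjusted p = 0.0103), lost without DAP 35 libraries 12 (0.0539) or 14 (0.0554), and WRKY-transcription factor 97 changed by -5.44 (0.0495), lost without mature libraries 33 (0.165) or 34 (0.167) or DAP 35 libraries 12 (0.151), 13 (0.146) or 14 (0.2), and not passed with edgeR (adjusted p = 0.159). No locus carried a name of the CCAAT family.

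By the same rule, these members were named in the other lists. One of the loci named tonoplast intrinsic protein2 (Zm00001d051362), a vacuolar water channel, had no read in mature kernels, against 197, 394 and 173 counts at DAP 35, and was at least 138-fold lower in mature kernels (adjusted p = 0.0028). On the log2 scale, glutathione transferase39, a detoxifying enzyme, changed by -8.09 (adjusted p = 0.00509), while glutathione transferase35 rose by 4.92 (0.0134), a call lost without mature library 34 (0.0563) or DAP 35 library 14 (0.0579). Cysteine protease5 had no read in mature kernels and was at least 114-fold lower there (adjusted p = 0.00285). Elongation initiation factor2 changed by -1.76 (adjusted p = 0.00314). The locus of autophagy12, of the conjugation system of autophagy, holds another gene too and rose by 1.61 (adjusted p = 0.0331), lost without mature libraries 33 (0.0642) or 34 (0.0543) or DAP 35 libraries 12 (0.071), 13 (0.105) or 14 (0.117), and not called with equal totals or with edgeR. Defensin-like protein2, of a family of small antimicrobial proteins, had 305167, 299741 and 318380.3 counts in mature kernels, against 145511, 150789 and 129313 at DAP 35 (log2 change 1.12, adjusted p = 0.00187), lost without mature libraries 33 (0.234) or 34 (0.388) and with equal totals. Pathogenesis-related protein2 changed by -7.51 (adjusted p = 0.0232), lost without mature library 35 (0.0693) or DAP 35 libraries 12 (0.0996), 13 (0.103) or 14 (0.0973). The locus of aspartate kinase homoserine dehydrogenase2, of threonine and methionine synthesis, holds another gene too and changed by -6.17 (adjusted p = 0.0244), lost without mature library 34 (0.0694) or DAP 35 libraries 12 (0.106), 13 (0.098) or 14 (0.112). The wax gene glossy13 changed by -6.55 (adjusted p = 0.012), lost without mature library 34 (0.0603) or DAP 35 libraries 12 (0.0662), 13 (0.068) or 14 (0.0701).

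**Figure D4:**
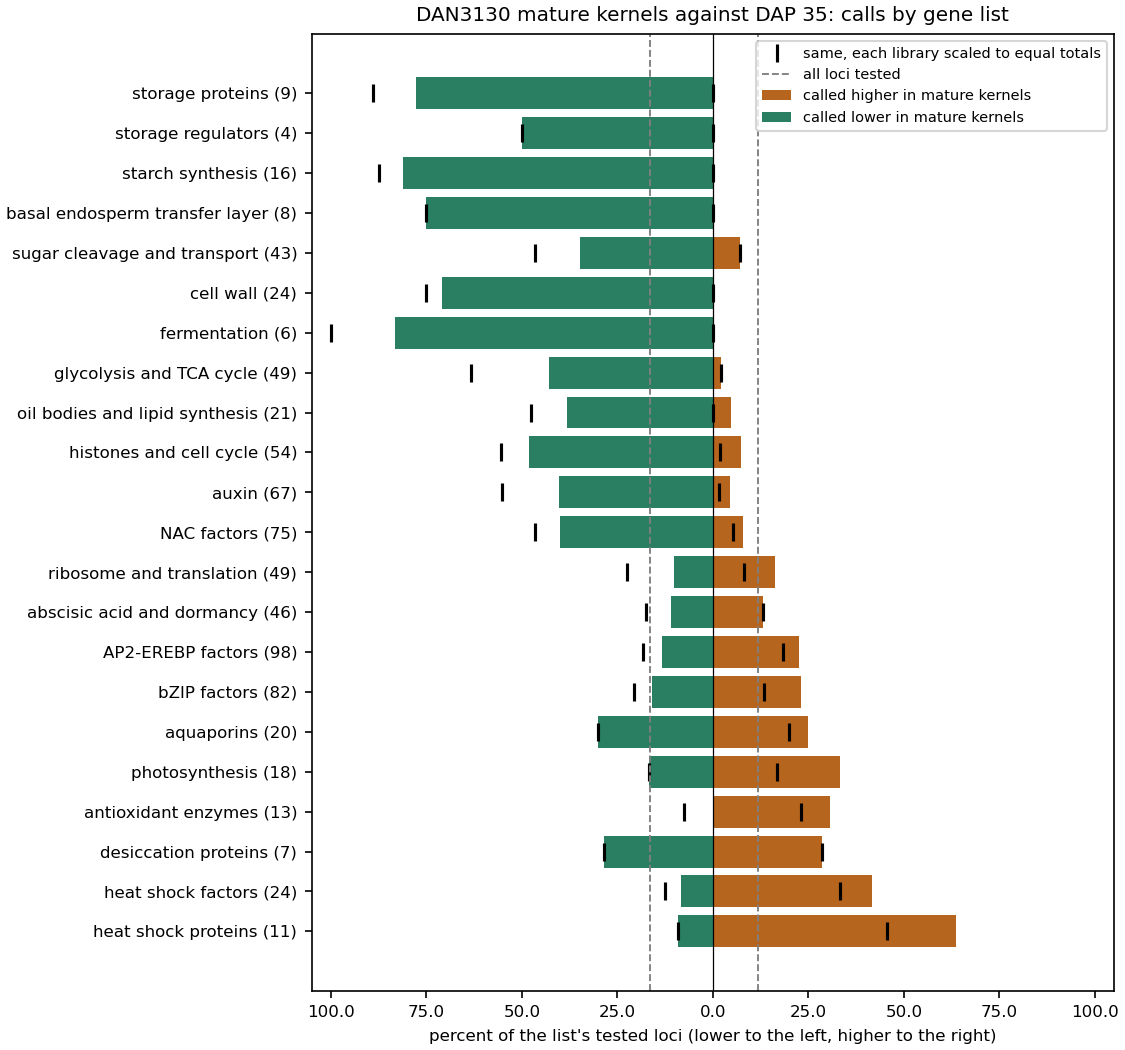
Percent of each list's tested loci called lower (left) and higher (right) in mature than in DAP 35 kernels of DAN3130, with the number of tested loci in parentheses, black ticks for libraries scaled to equal totals, and dashed lines at the shares over all loci tested (11.7% higher and 16.6% lower). The lists hold only loci with a gene identifier, of which 11.3% were higher and 20.6% lower. Starch synthesis, storage protein, transfer layer, fermentation and cell wall lists hold no rise, while heat shock proteins hold 7 rises and 1 fall.

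Folate, a cofactor that carries single carbon units, is built from a pteridine, p-aminobenzoate and glutamate, and its genes were listed by the study on these samples, so that their counts are not independent evidence of a direction. Of 15 folate biosynthesis genes 3 rose and 4 fell (median 0.29). With equal totals 2 rose and 6 fell and the median turned to -0.18, so that the balance depended on the scaling. Without mature library 34, 3 rose and 2 fell, and over the fits that left out 1 library the falls numbered 0 to 4. DHNA2, a dihydroneopterin aldolase of the pteridine branch, had 2199, 5097 and 8324 counts in mature kernels, against 338, 427 and 452 at DAP 35, a change of 3.49 ± 0.47 (SE, adjusted p = 0.00346). ADCS, the aminodeoxychorismate synthase of the p-aminobenzoate branch, had 1588, 1275 and 1416 in mature kernels, against 376, 525 and 502 at DAP 35 (log2 change 1.62, adjusted p = 0.00609). The folylpolyglutamate synthases, which add the glutamate tail, moved apart, since FPGS1 had 1349, 1636 and 879 in mature kernels, against 365, 403 and 409.8 at DAP 35 (log2 change 1.67, adjusted p = 0.00933, not called at equal totals with 0.0527), while FPGS2 had 574, 899.6 and 378 in mature kernels, against 1779.7, 2368 and 2511 at DAP 35 (log2 change -1.92, adjusted p = 0.00928). The call of FPGS2 was lost without DAP 35 libraries 13 (0.051) or 14 (0.0556).

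The other 3 falls had larger p-values. HPPK/DHPS, the bifunctional enzyme that joins pterin and p-aminobenzoate, had 529, 63.8 and 295 in mature kernels, against 1044, 1154 and 1086 at DAP 35 (log2 change -2.34, adjusted p = 0.0483), with the lowest value in library 34. ADCL1, the lyase that completes p-aminobenzoate, changed by -1.50 (adjusted p = 0.0349), and GGH, the hydrolase that trims the tail, by -1.23 (adjusted p = 0.0481). None of these 3 calls was stable to leaving out a library. HPPK/DHPS was not called with edgeR (adjusted p = 0.0551) nor without mature library 35 (0.0948) or DAP 35 libraries 12 (0.151), 13 (0.165) or 14 (0.156). ADCL1 was not called without mature libraries 34 (0.0571) or 35 (0.0798) or DAP 35 libraries 12 (0.128), 13 (0.128) or 14 (0.102). GGH was not called with edgeR (adjusted p = 0.0562) nor without mature libraries 34 (0.0729) or 35 (0.0684) or DAP 35 libraries 12 (0.115), 13 (0.157) or 14 (0.152). The remaining members DHNA1, DHFS1, DHFS2, GCHI-1, GCHI-2, ADCL2, DRTS3 and DRTS4 changed by between -0.90 and 0.96 and were not called.

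Among 15 one-carbon genes, which use folate, 1 rose and 7 fell (median -0.25), and with equal totals none rose and 7 fell. MS2, a methionine synthase that transfers the methyl group of folate, had 203, 255 and 153 counts in mature kernels, against 6319, 7194 and 6645 at DAP 35, a change of -5.07 ± 0.26 (SE, adjusted p = 0.000525). MTHFR1, which makes methyl-folate, had 823, 772 and 624 in mature kernels, against 4977, 4260.1 and 4768 at DAP 35 (log2 change -2.66, adjusted p = 0.000883). Subunits of the glycine cleavage complex fell together, with changes of -4.09 for GCSP (adjusted p = 0.00202), -2.96 for GCSH2 (0.0215) and -1.32 for GCST (0.031). The call of GCSH2 was lost without mature library 33 (0.101) or DAP 35 libraries 12 (0.0975), 13 (0.0943) or 14 (0.0834), and that of GCST without mature library 34 (0.0532) or DAP 35 libraries 12 (0.128), 13 (0.0836) or 14 (0.094).

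Serine hydroxymethyltransferases, which load carbon from serine, divided. SHMT-GLY1 had 623, 1077 and 1368 in mature kernels, against 5183, 4587 and 4854 at DAP 35 (log2 change -2.32, adjusted p = 0.00324), SHMT7-1 had 2230.3, 2217 and 1821 in mature kernels, against 1039.7, 1107 and 929 at DAP 35 (log2 change 1.02, adjusted p = 0.0133), and SHMT7-2 (log2 change -0.25, adjusted p = 0.488) was not called. DHC3, of the enzymes that interconvert the carbon units, changed by -1.29 (adjusted p = 0.0121), and MS1, 5-FCL-1, 5-FCL-2, FTHS, DHC1 and DHC2 were not called, with changes between -0.19 and 1.67. SHMT7-1 was under 2-fold at equal totals (log2 change 0.55) and was not called without mature libraries 33 (0.0168, under 2-fold) or 34 (0.0166, under 2-fold) or DAP 35 libraries 12 (0.0536) or 14 (0.0605), nor DHC3 without DAP 35 libraries 12 (0.0507) or 14 (0.0603).

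All 5 glutamate and asparagine genes that the study singled out rose (median 1.77), where 11.7% of all loci tested rose, and 3 did without mature library 34. The study chose these genes on these samples, partly for their change between stages, so that this count is not independent evidence of a direction. Asparagine synthetase 3, which makes the nitrogen carrier asparagine, had 4164, 7151 and 9443 counts in mature kernels, against 232, 1060.3 and 93.6 at DAP 35, a change of 4.52 ± 0.83 (SE, adjusted p = 0.00866). Glutamine 5-phosphoribosylpyrophosphate amidotransferase, the first enzyme of purine synthesis, had 4161, 5196 and 11377 in mature kernels, against 477, 453 and 421 at DAP 35 (log2 change 3.80, adjusted p = 0.00148). Glutamate decarboxylase, which makes GABA, changed by 1.73 (adjusted p = 0.0076), glutamine synthetase5 by 1.77 (0.00849) and asparagine synthetase 2 by 1.42 (0.0152). The call of asparagine synthetase 3 was lost without mature library 34 (0.0579) or DAP 35 library 12 (0.0523), that of glutamate decarboxylase without DAP 35 library 14 (0.0521), and that of asparagine synthetase 2 without mature library 34 (0.053) or DAP 35 libraries 12 (0.0827), 13 (0.0624) or 14 (0.0717) and at equal totals (log2 change 0.95, adjusted p = 0.0236).

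Loci that the assembly gave no gene identifier had a share of rises near that of loci with one, and a smaller share of falls. Of 8219 tested, 1061 (12.9%) rose and 510 (6.21%) fell, with a median change of 2.06. Loci were tested on their mean over the 6 libraries, so a locus read in only 1 stage could pass. Among all tested loci, 2713 had no read at DAP 35 and 1333 had none in mature kernels. The positive median therefore does not show a general rise of such loci. Among 21414 loci with an identifier 2413 (11.3%) rose and 4408 (20.6%) fell, with a median of -0.60. With equal totals 891 rose and 633 fell among loci without an identifier, against 1517 and 6137 among those with one. Loci without an identifier held 6.66%, 10.2% and 3.23% of normalized counts in mature kernels, against 3.17%, 3.43% and 2.51% at DAP 35. Library 34, with the largest share, was also the one with most intron reads, and without it 1141 rose and 535 fell.

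The same stages were compared in JI63 to test which changes differed between the lines. The difference, the DAN3130 change minus the JI63 change fitted over 12 libraries, passed at 690 loci (2.33%) in the direction of DAN3130 and at 979 (3.31%) against it, out of 29608, which makes 1669 (5.64%) in all. This count was 1399 (4.73%) with equal totals, 364 (1.23%) with edgeR, 4354 without DAN3130 mature library 35, 837 and 889 without DAN3130 DAP 35 libraries 12 and 14, and 737 and 706 without JI63 DAP 35 libraries 26 and 29. Of the 24 genes with the largest rises and falls it passed at 7, and since these genes were chosen for their change in DAN3130, which enters the difference, a larger change in DAN3130 is favoured by that choice. Galactinol synthase1 had 149.6, 155 and 21.9 counts in mature JI63 kernels, against 12.8, 36.6 and 12.6 at DAP 35, and its change of 2.09 there was 4.08 ± 1.03 (SE) log2 units smaller than in DAN3130 (adjusted p = 0.0421), a difference that passed in 4 of the 12 fits that left out a library. BURP domain-containing protein-RD22-like5 had no read in any of the 6 JI63 libraries. BZIP-transcription factor 55 had 2.58, 20.7 and 0 counts in mature JI63 kernels, against 1.73, 1.63 and 0 at DAP 35.

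Among tubulins, beta tubulin6 had 6909.7, 4608 and 4627 counts in mature JI63 kernels, against 4823, 4975 and 4649 at DAP 35, so that its changes were -3.0 in DAN3130 and 0.13 in JI63 (adjusted p of the difference = 0.00324). Alpha tubulin2 changed by -2.97 in DAN3130 and -0.72 in JI63 (adjusted p of the difference = 0.00207), and 7 of 54 histone, tubulin and cell cycle loci differed, all in this direction. Of these loci 4 passed with equal totals and 5 with edgeR.

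Fermentation differed at 3 of 6 genes. Pyruvate decarboxylase2 had 891, 464 and 1182 counts in mature DAN3130 kernels, against 3996, 3108 and 3904 at DAP 35, and 4706, 4666 and 5440.3 in mature JI63 kernels, against 2255, 2653 and 2140.4 at DAP 35. It changed by -2.21 in DAN3130 and by 1.07 in JI63, with a difference of -3.28 ± 0.41 (SE, adjusted p = 0.00324). Alcohol dehydrogenase2 changed by -7.16 in DAN3130 and by -1.37 in JI63 (adjusted p of the difference = 0.00818). Both differences also passed with equal totals, with edgeR and in all 12 fits that left out a library. That of pyruvate decarboxylase3 (-1.03, adjusted p = 0.0275) did not pass with equal totals (0.117) or edgeR (0.166), and passed in 3 of the 12 fits.

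Transfer layer genes differed at 4 of 7, and in each no JI63 library at DAP 35 exceeded 16.3 counts. Basal endosperm transfer layer10 had 0, 0 and 1.08 counts in mature DAN3130 kernels, against 190.3, 669 and 228 at DAP 35, and 0, 0 and 0 in mature JI63 kernels, against 13.4, 16.3 and 4.57 at DAP 35 (adjusted p of the difference = 0.0429). None of these 4 passed with edgeR, and this one passed in 2 of the 12 fits that left out a library. Stearoyl-acyl-carrier-protein desaturase1, which makes oleate, changed by -2.21 in DAN3130 and 0.14 in JI63 (adjusted p of the difference = 0.00636). DHNA2 was the only folate biosynthesis gene that differed, and changed by 3.49 in DAN3130 and 0.72 in JI63 (adjusted p of the difference = 0.0206, passed in 10 of the 12 fits that left out a library). Ribosomal genes differed at 7 of 49 and glycolysis and cycle genes at 7 of 48, all lower in DAN3130, but with equal totals at 1 of each, so these depended on the scaling. No difference passed among storage, desiccation or heat shock proteins, which does not show that the lines acted alike.

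**Figure D5:**
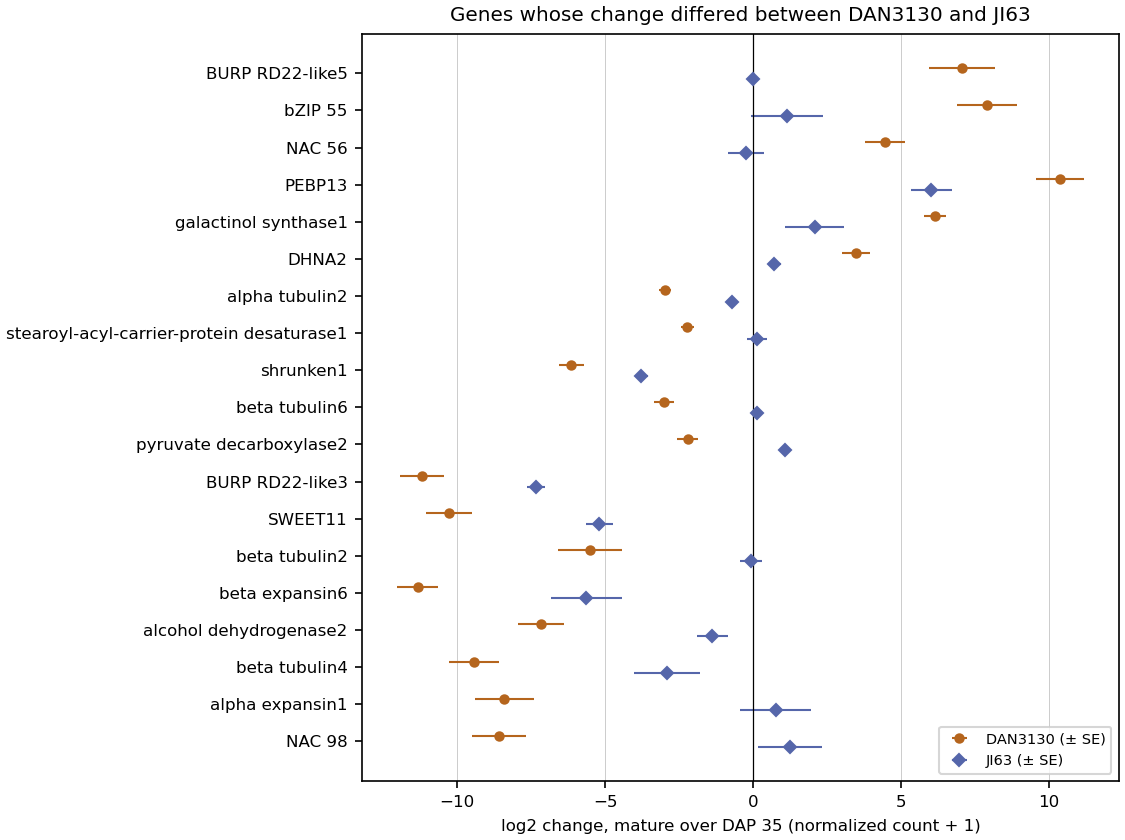
Log2 change of normalized count plus 1, mature over DAP 35, in DAN3130 (circles) and JI63 (diamonds), each ± SE, for 19 genes whose change differed between the lines and that were chosen after their values were seen. Pyruvate decarboxylase2 lies on opposite sides of 0 in the lines, while the falls of SWEET11 and shrunken1 are shared and lie further from 0 in DAN3130. SWEET11 had no read in mature kernels of either line, so the size of its falls depends on the DAP 35 level and the pseudocount. Its difference did not pass with edgeR.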

How the data were processed

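Kernels of 2 maize lines were sampled at DAP 24, DAP 35 and maturity and sequenced in 18 libraries, 3 a group, of which 6 are compared here and 6 serve the line difference. Per the labels and the study's methods, the authors aligned reads with HISAT2 2.1.0 to B73 version 4, assembled loci with Cufflinks, counted reads with HTSeq 0.11.2 without regard to strand, and divided the counts by DESeq2 size factors. The deposited table holds these normalized counts, a signal per locus that is not raw, for 103962 entries, of which 26258 are introns and were left out. All values were whole multiples of 1 step per library within 0.1%, so reads were recovered for count tests. Genes on opposite strands and near-identical copies cannot be told apart by these counts. The kind of library preparation is not stated there.

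Loci with a mean above 10 were tested with limma 3.58.1 in R 4.3.3, with a trend, on log2(value + 1), and p-values were adjusted by the Benjamini-Hochberg method over all 29633 loci. The line difference is an interaction term over 12 libraries. A locus without a read in a group was set at 3 reads over the group for a bound, and ratios on 1 to 3 reads carry a 95% interval, both for counting error only. Alternatives included edgeR 4.0.16 and DESeq2 1.42.0 on recovered reads, other scalings, pseudocounts and filters, and leaving out each library. The test was also run on simulated data. Named genes were the 12 largest rises and 12 largest falls among named single-gene loci whose mean was 100 or more, called with both the deposited scaling and equal totals and without overlap of the groups, the largest called rise and fall of each list among members with such a mean, the 5 most abundant named loci of each group, and the folate, one-carbon and glutamate genes. The members and lists were chosen with earlier results of these data known. The authors' gene names were used, and other columns were not needed.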

Additional observations from a re-analysis of the deposited data

Results flagged for a closer look

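Of the 24 genes with the largest changes, 7 differed in their change between the lines by the interaction term over 12 libraries, and each value here is the DAN3130 change minus the JI63 change on the log2 scale. These genes were chosen for their change in DAN3130, which enters the difference, so a larger change there is favoured by the choice and the 7 do not show that the genes are particular to the line. Of the 4 that rose in DAN3130, bZIP-transcription factor 55 differed by 6.77 (adjusted p = 0.0238) and BURP domain-containing protein-RD22-like5, without a read in JI63, by 7.07 (adjusted p = 0.0139). Phosphatidylethanolamine-binding protein13 differed by 4.36 (adjusted p = 0.0322), with 235, 97.3 and 117 counts in mature JI63 kernels, against 2.43, 0 and 1.83 at DAP 35, and galactinol synthase1 by 4.08 (adjusted p = 0.0421).

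Of the 3 that fell, beta expansin6 differed by -5.71 (adjusted p = 0.0285), with 15.5, 6.21 and 0 counts in mature JI63 kernels, against 277, 369 and 139 at DAP 35. BURP domain-containing protein-RD22-like3 differed by -3.86 (adjusted p = 0.0245), and SWEET11 (sugars will eventually be exported transporter11) by -5.08 (adjusted p = 0.0136), and neither had a read in mature kernels of either line. Where a group has no read, the size of these differences depends on the pseudocount. With edgeR the difference did not pass in bZIP-transcription factor 55, RD22-like5, RD22-like3 and SWEET11. Of the 12 fits that left out a library, the difference passed in 5 for phosphatidylethanolamine-binding protein13, 6 for bZIP-transcription factor 55, 12 for RD22-like5, 4 for galactinol synthase1, 6 for beta expansin6, 6 for RD22-like3 and 12 for SWEET11.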

How the results depend on the processing

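No list member or named gene that was called changed direction under any setting run. Of 553 such members, 498 were still called with equal totals, 443 with edgeR, 525 with DESeq2, 421 without mature library 34 and 282 without DAP 35 library 14. Fitting all 18 libraries together gave 13178 calls, 5270 higher and 7908 lower, and 3772 line differences, while edgeR gave 364 line differences. Leaving out each library in turn gave 3299 to 9293 calls, with 1541 to 3382 higher and 1758 to 5911 lower, and 706 to 4354 line differences. Calls were fewest without a DAP 35 library (3698 without library 12, 4455 without 13 and 3299 without 14). The cause was not tested. The mature libraries 33 and 34 were the shallowest, which limits what can be seen of low genes at maturity. No paired analysis was possible because the library codes are not shared between the groups.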
